A study of Mus musculus with 8 samples.

Results

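The hepcidin and iron-sensing genes of the liver were Hamp, Hamp2, Tfrc, Tfr2, Hfe, Slc40a1, Bmp6, Id1, Smad7 and Tmprss6, chosen by symbol, 10 of the 55450 genes in the tables. They were followed in polyadenylated RNA of 8 mouse livers, 4 controls (floxed Cebpa, Cre-) and 4 knockouts (Cre+, hepatocyte Cebpa deleted). All 8 mice were fed ethanol: they were weight-matched and 10 weeks old at the start, took a control liquid diet for 5 days and then 5% ethanol by volume for 4 weeks. Livers without ethanol are not analysed here, the Cre driver is not given in the sources used here, and nothing in the labels says which livers shared a litter or a day. Levels are CPM, a gene's share of the counts scaled to 1e6 on TMM-adjusted library sizes, unless TPM, which also divides by transcript length, is named. Values of single livers are listed in the order of replicate numbers 1 to 4, and gene coordinates are on mm10.

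Hepcidin, the product of Hamp, is a peptide hormone of hepatocytes that binds the iron exporter ferroportin (Slc40a1) and has it degraded, so that less iron enters the blood from gut, macrophages and liver. Its transcription follows iron through bone morphogenetic proteins made by the sinusoidal endothelium, of which BMP6 is the best known, and SMAD proteins that also switch on Id1 and the feedback inhibitor Smad7. HFE and transferrin receptor 2 (Tfr2) report transferrin-bound iron to that pathway, the protease matriptase-2 (Tmprss6) damps it by cleaving hemojuvelin, and IL-6 acts on the same promoter through STAT3. C/EBP alpha, the protein that Cebpa encodes, has been described as an activator of the hepcidin promoter, and ethanol as a factor that lowers hepatic hepcidin in rodents.

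The libraries held 21048350 to 28148744 expected counts each, and 1 count was worth 0.0341 to 0.0485 CPM. Cebpa was at 263.6 to 320.3 CPM in the controls and 5.44 to 9.26 CPM in the knockouts, which matched the genotype labels in all 8 livers. Of 13303 genes tested, edgeR called 274 at an adjusted p below 0.05 (113 higher and 161 lower in knockouts), or 2.06%. The split depended on the scaling, with 161 higher and 115 lower on library size alone and 124 higher and 82 lower on log2(TPM + 1). The summed TPM of 10 hepatocyte markers was 90310 to 115300 in controls and 113000 to 121300 in knockouts. Alb, the most abundant of them, had a log2 fold change of 0.19, while 7 of the 10 were negative, with a median of -0.18. One of the 10 was called by edgeR, Serpina1a, which was lower, and DESeq2 called 2, both lower. Control 2 stood apart in 18 acute phase genes, whose summed TPM was 55920 there, 10900 to 13490 in the other controls and 8981 to 13070 in knockouts. One of these 18, Orm1, was called, and it was lower (edgeR adjusted p = 0.0464). Orm1 was at 61.2 to 1413 CPM in the controls and 0.183 to 2.76 CPM in the knockouts. Its edgeR call was kept without control 2 (adjusted p = 0.0259) or control 4 (0.0438). The call was lost on library size alone (adjusted p = 0.0512), and when control 1 or 3 or any 1 knockout was left out (up to 0.146).

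The promoters of both hepcidin genes are shown because the regulators above act on them. Each is the 250 bases before the RefSeq start (build GRCm38.p6, minus strand), Hamp at chr7:30944030-30944279 and Hamp2 at chr7:30924182-30924431, with the matches to 4 searched motifs in capitals. The Hamp2 window lies inside the Hamp2 gene as annotated on mm10 (chr7:30922372-30924681), whose start is upstream of the RefSeq start.
Hamp: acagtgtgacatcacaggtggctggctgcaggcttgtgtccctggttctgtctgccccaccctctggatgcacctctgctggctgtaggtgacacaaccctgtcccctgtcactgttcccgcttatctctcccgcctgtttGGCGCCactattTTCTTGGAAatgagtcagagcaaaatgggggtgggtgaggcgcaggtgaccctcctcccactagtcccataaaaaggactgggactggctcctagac
Hamp2: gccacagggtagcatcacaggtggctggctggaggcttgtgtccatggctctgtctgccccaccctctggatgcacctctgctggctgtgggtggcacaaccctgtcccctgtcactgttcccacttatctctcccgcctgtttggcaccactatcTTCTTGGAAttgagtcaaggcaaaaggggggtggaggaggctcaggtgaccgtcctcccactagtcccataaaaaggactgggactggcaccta

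The Hamp window held the BMP-responsive motif GGCGCC at -109 to -104 and, next to it, the STAT motif TTCNNNGAA at -97 to -89. The Hamp2 window held the same STAT match, at -94 to -86, but no GGCGCC. Its aligned bases, GGCACC, differed by G4A, counted from 1 at the motif's 5′ end. GGCGCC stood in 9.59% and TTCNNNGAA in 7.02% of 32851 promoter windows of this length. The C/EBP motif searched, TTGCNNAA, on both strands, stood in 9.56% of windows, and the E-box CACGTG in 6.02%, and neither was in the hepcidin windows. Of the 10 genes, 6 had entries in the promoter table. Among the windows of the other 4 (Tfrc, Tfr2, Hfe and Bmp6), 1 of 2 for Tfrc held GGCGCC and that of Bmp6 held CACGTG. The Bmp6 window, like that of Hamp2, lies inside its gene as annotated on mm10.

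No iron-sensing gene passed the test between the genotypes. All 10 had enough counts to be tested, and edgeR called 0 of them, beside 2.06% of all genes. At an unadjusted p below 0.05 there were 2 of 10, Smad7 and Id1, both with higher values in the knockouts, beside 18.5% of all genes. DESeq2 called 1, Smad7, beside 5.8% of the genes it gave an adjusted p. Smad7 was also the 1 gene of the 10 whose groups did not overlap in CPM, as 11.5% of all tested genes did not. In TPM its groups overlapped, with control 1 the highest liver at 4.52 TPM and the knockouts at 3.55 to 4.19 TPM. The log2 fold changes were positive for 5 and negative for 5, with a median of 0.05 beside 0.00 over all genes. The intervals below show how large a difference the 8 livers leave room for.

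**Figure D1:**
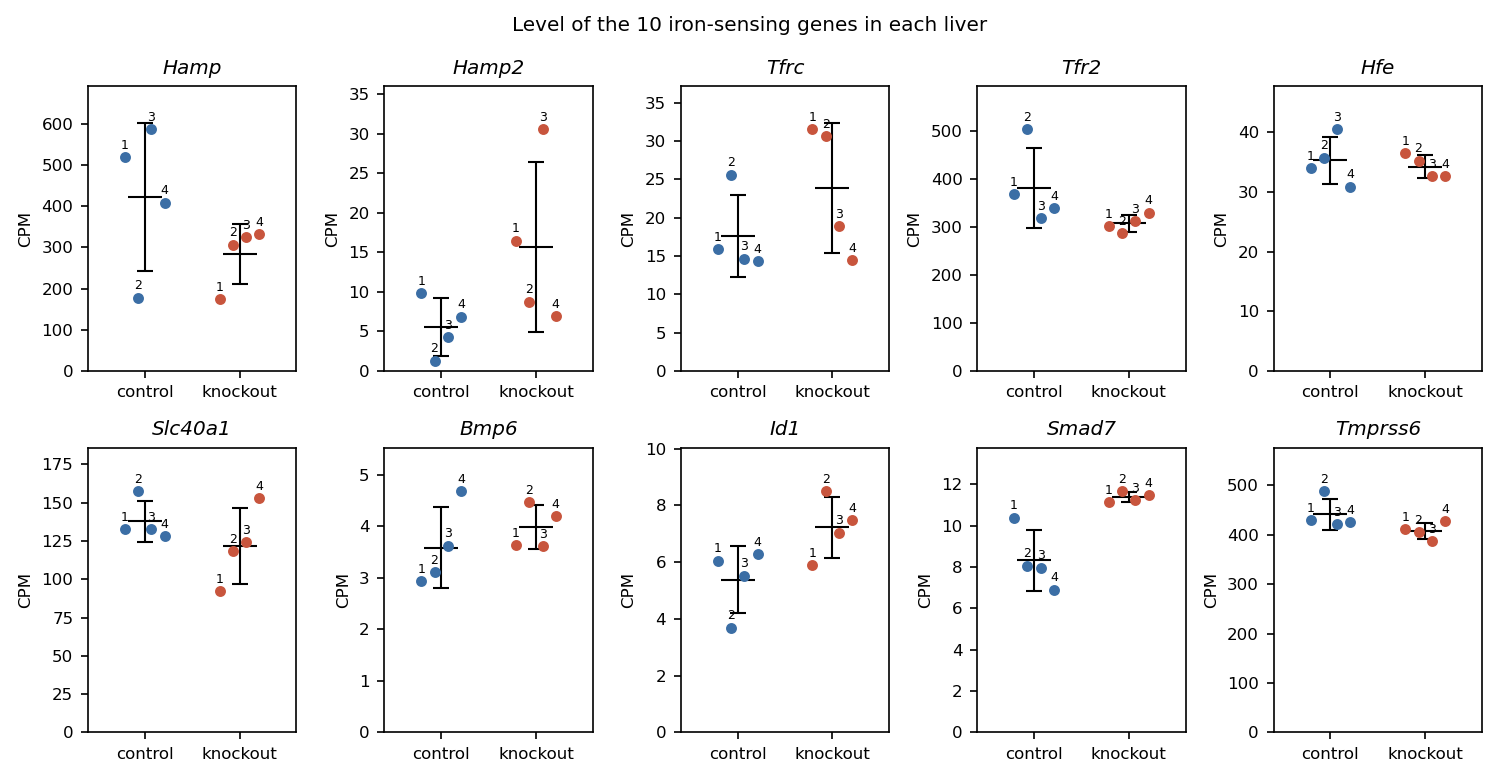
Level in CPM (y axis, from 0) of each of the 10 genes in the 4 control and 4 knockout livers (points, numbered by replicate), with the group mean and SD (bars, n = 4). The Smad7 groups do not overlap, with 6.90 to 10.4 CPM in the controls and 11.1 to 11.7 in knockouts, and the other 9 genes overlap.

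Per length, Hamp was the most abundant of the 10 by far, at 2043 ± 801 TPM (SD, n = 8 livers of both genotypes). Tmprss6 at 185.8 ± 13.6 TPM and Tfr2 at 175.3 ± 32.2 TPM came next and lay within their spread of each other. Their order differed by genotype, with Tfr2 at 188.1 and Tmprss6 at 185.4 TPM in controls and at 162.6 and 186.3 TPM in knockouts. Hamp2 at 59.2 ± 51.1 TPM and Slc40a1 at 53.8 ± 8.75 TPM followed, also within the spread of Hamp2. In controls Hamp2 was the lower of them, at 29.5 ± 18.6 against 55.1 ± 6.10 TPM, and in knockouts the higher, at 88.9 ± 58.2 against 52.4 ± 11.7 TPM (SD, n = 4). Hfe was at 23.2 ± 3.2 TPM, Id1 at 10.9 ± 2.94 TPM and Tfrc at 7.17 ± 2.61 TPM. The lowest were Smad7 at 3.58 ± 0.795 TPM and Bmp6 at 1.46 ± 0.299 TPM. Id1 and Tfrc overlapped (6.25 to 16.0 and 4.59 to 11.02 TPM), while the ranges of Smad7 (2.07 to 4.52 TPM) and Bmp6 (1.04 to 1.86 TPM) did not.

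Hamp (ENSMUSG00000050440.8, chr7:30942368-30944032, minus strand) varied widely among the livers of both genotypes and did not pass the test. It was at 519.6, 177.7, 586.9 and 408.8 CPM in the 4 controls and at 174.6, 306.9, 324.3 and 331.7 CPM in the 4 knockouts. The 3 highest livers were controls, but control 2 lay beside knockout 1 at the bottom, so the groups overlapped. The log2 fold change was -0.57 (SE 0.36, 95% interval -1.40 to 0.25, edgeR adjusted p = 0.434), so the data leave room for anything from a 0.38-fold to a 1.19-fold level in knockouts. Without control 2 it was -0.83 (adjusted p = 0.127), and without control 3 it was -0.38 (adjusted p = 0.636).

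Hamp2 (ENSMUSG00000056978.8, chr7:30922372-30924681, minus strand) is the mouse-specific duplicate of Hamp, and its peptide has not been found to act on iron when overproduced in mice. It was at 9.84, 1.31, 4.25 and 6.85 CPM in the 4 controls and at 16.5, 8.74, 30.5 and 6.96 CPM in the 4 knockouts. Knockouts 1 and 3 were the highest livers and control 2 the lowest, and control 1 lay above knockouts 2 and 4. Its log2 fold change was 1.48 (SE 0.66, interval -0.06 to 3.03, edgeR adjusted p = 0.287), opposite in sign to that of Hamp, and it was 0.93 without knockout 3 (adjusted p = 0.499).

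The transcripts of Hamp and Hamp2 were 94.6% identical over 410 aligned bases, and the promoter windows 91.9%. Reads that fit both genes were divided by the authors' estimation and each level is uncertain. Their sum is free of that uncertainty: the expected counts of the pair added to a whole number in every liver, within 0.01. The sum was 529.4, 179.1, 591.2 and 415.6 CPM in the 4 controls and 191.1, 315.6, 354.8 and 338.7 CPM in the 4 knockouts, or 428.8 ± 182 and 300.1 ± 74.4 CPM (SD, n = 4). The mean log2 CPM was 0.42 lower in knockouts, with a two-sided exact permutation p = 0.4. Without control 2, the only control not above every knockout, it was 0.80 lower. The groups left do not overlap, so their exact p was bound to be the smallest that the remaining livers allow, 0.0286. It adds no support for a difference.

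The share of Hamp2 in the pair did not overlap between the genotypes, a measure chosen after the values were seen. It was 1.86%, 0.733%, 0.721% and 1.65% in controls 1 to 4 and 8.63%, 2.77%, 8.61% and 2.05% in knockouts 1 to 4, so that every knockout lay above every control. The means were 1.24 ± 0.600% and 5.51 ± 3.60% (SD, n = 4), and knockouts 1 and 3 carried most of the difference. It is given as a description with no test, since it was picked for its separation. The share rests on how the estimation divided the shared reads, the effect of which was not tested. The lincRNA gene Gm44662, annotated across both hepcidin genes on the opposite strand, had 0 counts in all 8 livers.

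**Figure D2:**
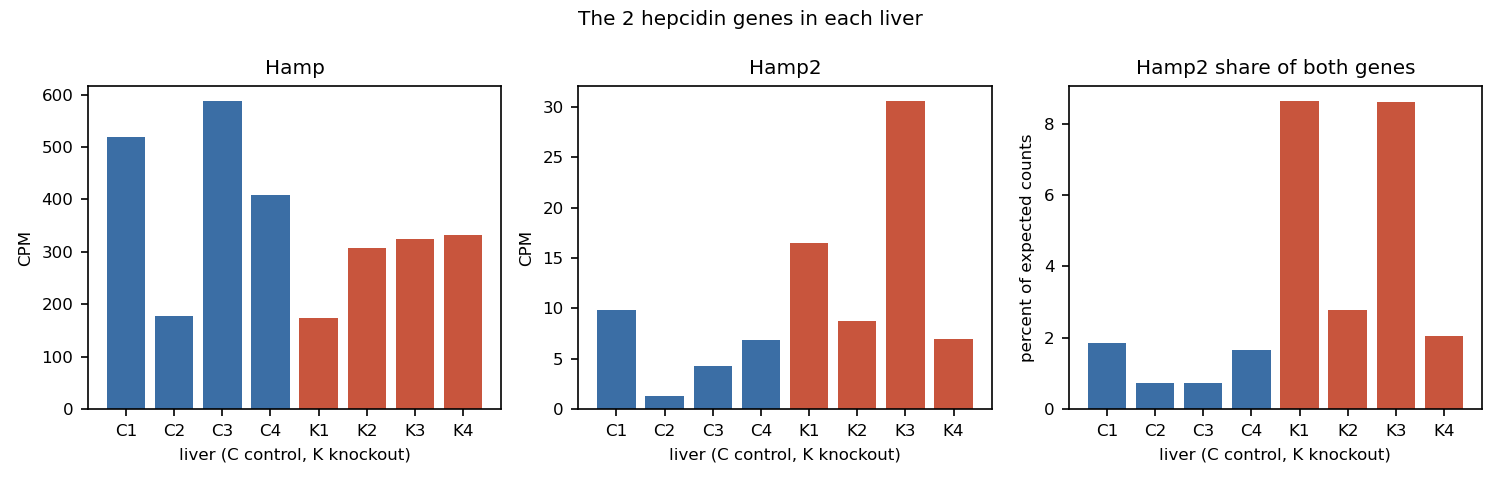
Bars (y axes from 0) give Hamp in CPM, Hamp2 in CPM and the percent of the pair's expected counts that fell on Hamp2, in controls C1 to C4 and knockouts K1 to K4. The Hamp2 share is 0.721% to 1.86% in controls and 2.05% to 8.63% in knockouts, with K1 and K3 the highest.

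None of the genes that sense transferrin iron or damp the signal passed the test. Tfr2 (ENSMUSG00000029716.13, chr5:137569840-137587481, plus strand) was at 369.5, 504.2, 318.7 and 339.4 CPM in the 4 controls and at 302.8, 287.7, 313.0 and 330.4 CPM in the 4 knockouts. Control 2 was the highest liver, and knockout 4 lay above control 3. The log2 fold change was -0.31 (SE 0.14, interval -0.63 to 0.00, edgeR adjusted p = 0.274), and it was -0.15 without control 2. Hfe (ENSMUSG00000006611.15, chr13:23702034-23710854, minus strand), which encodes an MHC class I-like partner of transferrin receptors, ran from 30.8 to 40.4 CPM in the controls and from 32.6 to 36.5 CPM in the knockouts. Its log2 fold change was -0.04 (interval -0.25 to 0.17), and it was 0.03 on library size alone. Tmprss6 (ENSMUSG00000016942.6, chr15:78439667-78468634, minus strand), the protease that damps the pathway, was at 429.0, 488.7, 421.6 and 426.2 CPM in the controls and 411.5, 405.3, 387.7 and 427.1 CPM in the knockouts. Its log2 fold change was -0.11 (interval -0.31 to 0.08, adjusted p = 0.524), and it was 0.01 on log2(TPM + 1) values. The intervals of Hfe and Tmprss6 were the narrowest of the 10. The co-receptor hemojuvelin (Hjv, in the tables under its older symbol Hfe2) was named after its values were seen, at 37.5 ± 5.46 CPM in the controls and 42.6 ± 7.13 CPM in the knockouts (SD, n = 4, adjusted p = 0.516).

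The ligand Bmp6 (ENSMUSG00000039004.6, chr13:38345107-38500302, plus strand) was scarce in these whole-liver libraries. It was at 2.93, 3.11, 3.62 and 4.68 CPM in the 4 controls and at 3.64, 4.47, 3.61 and 4.20 CPM in the 4 knockouts. The groups overlapped throughout, and the log2 fold change was 0.15 (SE 0.18, interval -0.25 to 0.55, edgeR adjusted p = 0.692). Bmp2, the other endothelial ligand of the pathway, was at 11.9 ± 1.95 CPM in the controls against 13.3 ± 1.47 CPM (SD, n = 4, adjusted p = 0.545). It was outside the naming rule. Of 12 sinusoidal endothelial markers, Bmp2 among them, none was at 0 in all livers and none was called. Positive log2 fold changes were seen for 11, and 4 had an unadjusted p below 0.05, beside 18.5% of all tested genes. Their summed TPM was 98.5 to 125.1 in controls and 122.1 to 171.8 in knockouts, and its part in the Bmp6 level was not tested. In bulk tissue a change in the number of cells of a type and a change in RNA per cell cannot be told apart. Txndc5 and 4930579J19Rik overlap Bmp6 on the opposite strand, and their reads could count towards it too unless strand was used in counting. Whether it was is not given in the sources used here.

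The direct SMAD targets Id1 and Smad7 had positive log2 fold changes, while that of Hamp was negative, and none of the 3 passed the edgeR test. Smad7 (ENSMUSG00000025880.11, chr18:75367529-75395935, plus strand) was at 10.4, 8.06, 7.96 and 6.90 CPM in the 4 controls and at 11.1, 11.7, 11.2 and 11.5 CPM in the 4 knockouts. Every knockout lay above every control, and the knockouts lay close together. The log2 fold change was 0.45 (SE 0.13, interval 0.17 to 0.74, edgeR adjusted p = 0.106, DESeq2 adjusted p = 0.0492). Without control 1 edgeR called it too (log2 fold change 0.57, adjusted p = 0.0448), and on log2(TPM + 1) values it was 0.25 (adjusted p = 0.436).

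Id1 (ENSMUSG00000042745.9, chr2:152736251-152737410, plus strand), an inhibitor of basic helix-loop-helix factors, was at 6.05, 3.69, 5.52 and 6.29 CPM in the 4 controls and at 5.88, 8.51, 7.04 and 7.47 CPM in the 4 knockouts. Knockout 1 lay among the controls and control 2 was the lowest liver. The log2 fold change was 0.42 (SE 0.18, interval 0.01 to 0.83, edgeR adjusted p = 0.257). Of 10 tested genes in the list of BMP/SMAD targets, none was called by edgeR. DESeq2 called Smad7, 3 were positive, and the median was -0.10. Smad9 and Smad6, the non-members with the smallest p, had log2 fold changes of -0.36 and -0.16 (adjusted p = 0.617 and 0.702). Id2 and Id3, named after their values were seen, had log2 fold changes of -0.24 and -0.08. Those of Smad6 and Id2 turned positive without control 4 and control 1, and that of Id3 without control 1 or knockout 1.

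**Figure D3:**
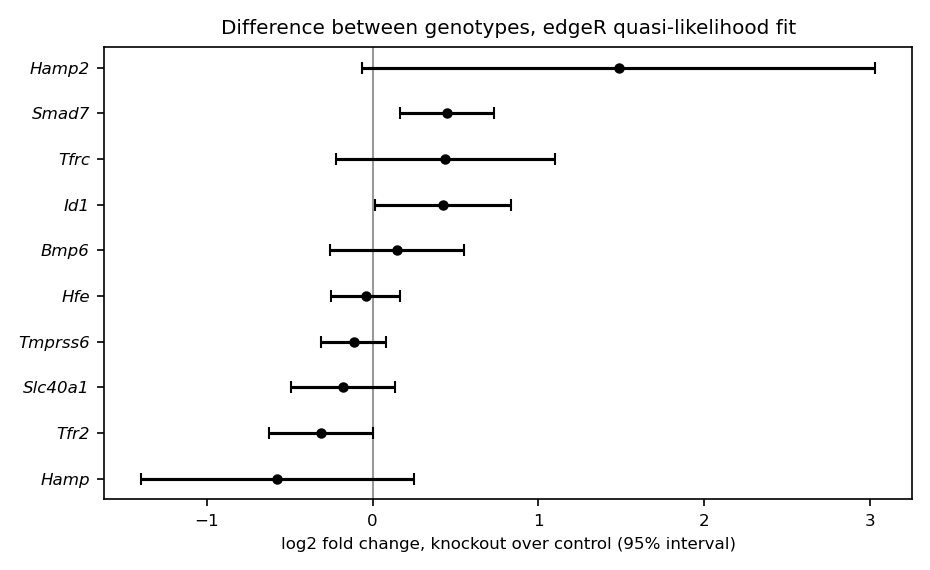
Points give the log2 fold change of each gene, knockout over control, and bars its 95% interval from the edgeR fit (x axis, log2 scale, 4 against 4 livers). The intervals of Smad7 (0.17 to 0.74) and Id1 (0.01 to 0.83) lie above 0 before adjustment, that of Hamp2 is the widest, and those of Hfe and Tmprss6 are the narrowest.

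Iron import and export by single cells are also set after transcription, by iron-responsive elements, hairpins in the mRNA that iron regulatory proteins bind when iron is low. In the 3′ UTR of Tfrc, which encodes the importer transferrin receptor 1, such binding keeps the mRNA from decay, and in the 5′ UTR of Slc40a1 it holds back translation. These sites are shown because iron acts on the Tfrc level through them. A search of the GENCODE transcripts for CAGTGN loops on a 5-base stem with a C before it found 4 in the 3′ UTR of Tfrc (chromosome 16 of mm10, plus strand, between 32631219 and 32631739) and 1 in the 5′ UTR of Slc40a1 (minus strand, chr1:45925464-45925493). Each is given as 30 bases with the loop in capitals.
Tfrc a: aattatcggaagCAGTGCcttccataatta
Tfrc b: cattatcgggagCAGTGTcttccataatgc
Tfrc c: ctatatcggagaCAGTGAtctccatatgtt
Tfrc d: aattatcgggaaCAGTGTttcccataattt
Slc40a1: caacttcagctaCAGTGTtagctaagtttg

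Tfrc (ENSMUSG00000022797.16, chr16:32608920-32632794, plus strand) was at 15.9, 25.6, 14.7 and 14.3 CPM in the 4 controls and at 31.5, 30.6, 18.9 and 14.5 CPM in the 4 knockouts. Knockouts 1 and 2 and control 2 were high, and knockout 4 lay with the 3 low controls. Its log2 fold change was 0.44 (SE 0.29, interval -0.22 to 1.10, edgeR adjusted p = 0.458). Tfrc is also a gene of red cell precursors. Of 12 erythroid markers 6 were tested, and 1 was called, the heme synthesis gene Alas2, which was lower in knockouts, beside 2.06% of all tested genes called. At an unadjusted p below 0.05 there were 3 of the 6, all lower, beside 18.5% of all tested genes. Gata1 was at 0 in all 8 livers, and the markers' summed TPM was 569.2 to 1348 in controls and 525.5 to 930.7 in knockouts. It was 1149 in control 2 but 702.4 and 525.5 in knockouts 1 and 2. Its part in the Tfrc level was not tested.

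Slc40a1 (ENSMUSG00000025993.10, chr1:45908068-45926523, minus strand), the exporter that hepcidin removes, was at 132.8, 157.7, 132.7 and 128.1 CPM in the 4 controls and at 92.2, 118.2, 124.4 and 152.9 CPM in the 4 knockouts. The knockouts spread from the lowest liver of all to nearly the highest. Its log2 fold change was -0.18 (SE 0.14, interval -0.49 to 0.14, edgeR adjusted p = 0.536). Kupffer cells, which also express ferroportin, had 12 markers tested, all with positive log2 fold changes. None was called by edgeR, 1 was called by DESeq2 and 5 had an unadjusted p below 0.05, beside 18.5% of all tested genes. None was at 0 in all livers. Their summed TPM was 184.8 to 386.7 in controls and 314.5 to 548.7 in knockouts, and its part in the Slc40a1 level was not tested. Of the other cell types, all 10 stellate markers tested were positive and none was called (summed TPM 77.8 to 155.5 and 136.3 to 255.9). An unadjusted p below 0.05 was seen for 3 of them. Of 7 cholangiocyte markers tested, 4 were called higher and none lower, beside 2.06% of all tested genes called. All 7 had an unadjusted p below 0.05, beside 18.5% of all tested genes (summed TPM 30.4 to 70.1 and 127.6 to 422.9).

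Across the 8 livers the levels of Hamp and Tfrc were negatively correlated, a relation noticed in the values. The 2 livers with the least Hamp, knockout 1 and control 2, were among the 3 with the most Tfrc. On log2 CPM, Pearson's r was -0.784 (exact permutation p = 0.0239, and 0.215 adjusted over the 9 relations of Hamp with the other genes), and Spearman's rho was -0.786 (p = 0.0279, adjusted 0.251). The relation does not pass the adjustment. Without control 2 and knockout 1, the livers farthest from the median of Hamp, r was -0.569. The other 8 relations had r between -0.293 and 0.327, with unadjusted p of 0.44 to 0.975. By the size of r, Tfrc did not stand out once the group means were taken off. Over deviations from those means r was -0.738 for Tfrc, beside 0.858 for Id1, -0.759 for Tmprss6 and -0.743 for Tfr2. On log2 CPM as such, the r of Id1 was 0.327 over all 8 livers and -0.926 without control 2 and knockout 1. Those of Tmprss6 and Tfr2 also changed sign, from -0.293 and -0.287 over all 8 livers to 0.562 and 0.565 without those 2. The r over deviations was not computed without those livers.

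**Figure D4:**
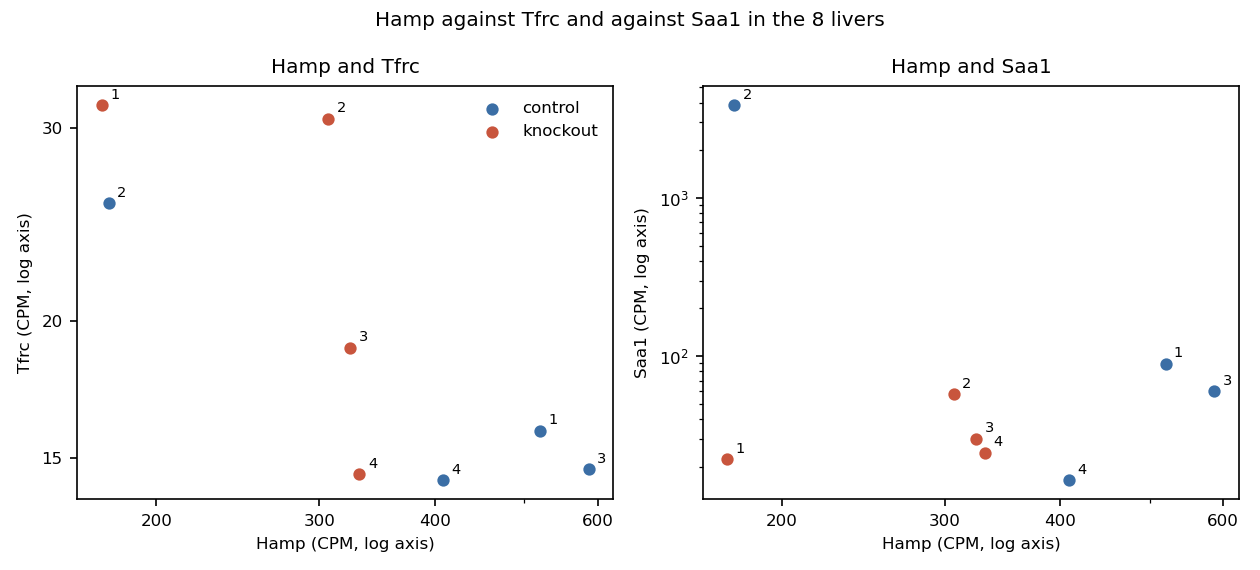
Hamp in CPM (x axes, log) against Tfrc (left) and the acute phase gene Saa1 (right) in CPM (y axes, log), 1 point per liver numbered by replicate. Control 2 has little Hamp (177.7 CPM), much Tfrc (25.6 CPM) and the most Saa1 (3883 CPM), while knockout 1 has as little Hamp (174.6 CPM) and little Saa1 (22.4 CPM).

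The genes with the level pattern most like Hamp, among the 11945 tested genes that averaged 1 CPM or more, were Gm4673, Gm10222 and Pde4b, a cyclic AMP phosphodiesterase. The root mean square of the differences in centred log2 CPM over the 8 livers was 0.251, 0.28 and 0.317, where Hamp itself deviated from its mean by 0.598. Most like Tfrc were Ablim1, an actin-binding gene, the epithelial keratin gene Krt18 and Gca, with differences of 0.12, 0.155 and 0.207 beside a deviation of 0.459. Krt18 was at 113.2 CPM in control 2, 62.6 to 87.2 CPM in the other controls, and 130.4, 168.3, 100.8 and 67.4 CPM in the 4 knockouts.

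Control 2 combined the lowest Hamp of the controls with the highest acute phase levels. There the acute phase gene Saa1 was at 3883 CPM against 16.4 to 89.5 CPM in the other controls and 22.4 to 57.4 CPM in the knockouts, a gene named after its values were seen. Il6 itself had 0 to 0.0914 CPM. Of 14 tested genes in the list of IL-6/STAT3 and other inflammatory inputs, edgeR called 1, Cebpa, which was lower, DESeq2 called 3 (Cebpa, Stat3 and Socs3), and 4 were positive, with a median of -0.10. Stat3, the factor that carries the IL-6 signal, was at 102.2 ± 7.09 CPM in the controls and 81.3 ± 5.00 CPM in the knockouts with no overlap (SD, n = 4, log2 fold change -0.33, edgeR adjusted p = 0.0665, DESeq2 adjusted p = 0.0082). In TPM its groups overlapped, with control 3 at 29.13 TPM and knockout 4 at 29.81 TPM, and limma-trend on log2(TPM + 1) gave an adjusted p of 0.193. Of the 8 fits with a liver left out, edgeR called Stat3 in 1, without knockout 4 (adjusted p = 0.0422). Its target Socs3, outside the naming rule, was at 6.77, 12.8, 4.93 and 5.90 CPM in the controls and 2.61, 3.01, 3.98 and 4.40 CPM in the knockouts (edgeR adjusted p = 0.104).

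Of 66 tested genes in the 6 iron lists that are not among the 10, 1 was called, Cebpa. The other 65 had a median log2 fold change of -0.05 and adjusted p no lower than 0.0665. At an unadjusted p below 0.05 there were 16 of the 66, 5 higher and 11 lower, beside 18.5% of all tested genes (1278 higher and 1184 lower). In the list of hepcidin and its BMP/SMAD input, 0 of 17 tested genes were called and 4 were positive. There the hepatokine Fgl1 was at 218.4, 1006, 190.2 and 121.0 CPM in the controls and 120.0, 97.8, 23.9 and 141.3 CPM in the knockouts (a 0.25-fold level, edgeR adjusted p = 0.267), and its log2 fold change was -0.88 without control 2. The receptor Bmpr2 was at 52.3 ± 4.67 CPM in the controls against 46.5 ± 3.19 CPM (SD, n = 4, adjusted p = 0.322).

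Among 14 tested iron uptake genes none was called and 6 were positive, with a median of -0.18. The divalent metal importer Slc11a2 was at 25.3 ± 1.68 CPM in the controls and 19.8 ± 3.46 CPM in the knockouts (SD, n = 4, log2 fold change -0.36, edgeR adjusted p = 0.156), and edgeR called it without knockout 4 (adjusted p = 0.0213). Haptoglobin (Hp), which clears free hemoglobin, was at 2043 to 8079 CPM in the controls and 1266 to 1891 CPM in the knockouts without overlap. In TPM its groups overlapped, with control 4 at 2174 TPM and knockout 2 at 2318 TPM. Its log2 fold change was -1.35 (edgeR adjusted p = 0.158), and -0.67 without control 2 (adjusted p = 0.0703). Transferrin (Trf), the iron carrier of plasma, was named after its values were seen. It was at 18680 CPM in control 2, 10490 to 11310 CPM in the other controls and 9308 to 9974 CPM in the knockouts (adjusted p = 0.277).

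Among 12 tested genes of iron storage, release and export none was called by edgeR and 8 were positive, with a median of 0.10. Abcg2, which exports heme and other porphyrins, was at 134.7 ± 20.1 CPM in the controls and 180.5 ± 11.2 CPM in the knockouts without overlap (SD, n = 4, log2 fold change 0.42, edgeR adjusted p = 0.0933, DESeq2 adjusted p = 0.0222). Ceruloplasmin (Cp), the plasma ferroxidase, had a log2 fold change of -0.61 (edgeR adjusted p = 0.169), and -0.33 without control 2 (adjusted p = 0.18). Of 11 tested genes of the iron regulatory proteins and cellular iron sensing none was called, 5 were positive and the median was -0.04. Hif1a, a subunit of the hypoxia-inducible factor, was at 45.2 ± 1.30 CPM in the controls and 39.0 ± 0.967 CPM in the knockouts without overlap (SD, n = 4, adjusted p = 0.122). In TPM its groups overlapped, at 12.05 to 13.56 TPM in the controls and 11.33 to 12.67 TPM in the knockouts. Fbxl5, the iron-sensing ligase of the iron regulatory proteins, was at 25.8 ± 0.425 CPM in the controls against 28.1 ± 1.74 CPM (SD, n = 4, adjusted p = 0.383).

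**Figure D5:**
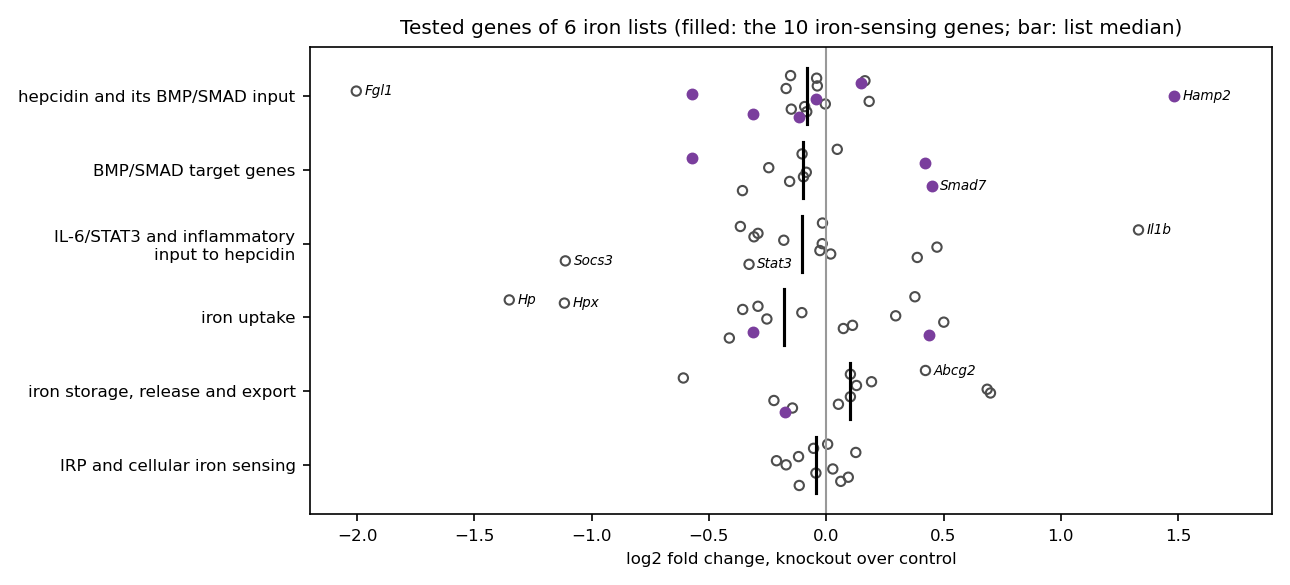
Each point is the log2 fold change (x axis, knockout over control, 4 against 4 livers) of 1 tested gene of an iron list (y axis), filled for the 10 iron-sensing genes, with the list median as a bar and names beside changes over 0.9 or adjusted p below 0.11. Cebpa, at -5.38, is left out of the plot but not of its list's median of -0.10, and the 6 medians lie between -0.18 and 0.10.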

How the data were processed

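Liver RNA was sequenced from stranded TruSeq mRNA libraries, per the labels. Tools listed in the submitters' processing notes, without their roles, are RSEM 1.2.22, STAR 2.5.1, Trimmomatic 0.36, Picard 1.84 and DESeq2, with build mm10. The authors deposited RSEM expected counts (estimated counts, which divide shared reads) and TPM per gene for each liver, and the series table held the same expected counts. All 55450 identifiers matched GENCODE M21. The members and lists were chosen with earlier results of these data known.

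Rounded expected counts were tested by edgeR 4.0.16 (R 4.3.3): filterByExpr by group (minimum count 10, total 15), TMM, robust quasi-likelihood test, two-sided, Benjamini-Hochberg adjustment over 13303 genes, threshold 0.05. The SE came from the fold change and F, and 95% intervals used the fit's degrees of freedom. log2 CPM had a prior count of 2. Exact permutation tests used all 70 splits of the livers into 4 and 4, all splits of those left where a liver was left out, sign flips within pairs under the replicate block, and all pairings for correlations. Replicates are separate livers by title, with no statement of separate litters, so p-values measure the spread between these samples. No 2 livers of a group agreed within sampling noise.

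Named were the 10 genes, Cebpa, called genes and the 2 smallest p of each iron list, and the 3 genes most like Hamp and Tfrc; others are marked where they appear. Alternatives were a filter of 1 CPM in 4 livers, no filter, library size alone, RLE factors, DESeq2 1.42.0, limma 3.58.1 (voom on unrounded counts; trend on log2(TPM + 1) and log2(TPM + 0.1)), a replicate block, each liver left out, and control 2 and knockout 4 left out together. The edgeR step was tested on simulated counts. Promoters are RefSeq's. Figures used matplotlib 3.10.9.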

Additional observations from a re-analysis of the deposited data

Results flagged for a closer look

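In each gene and group the highest and lowest liver were compared with the other 3, over 20 groups of 4 livers. In 4 of them 1 liver stood apart from the rest by Dixon's criterion at the 95% level, where chance gives about 1 in 20. Hamp in knockout 1 was at 174.6 CPM, against 306.9 to 331.7 CPM in the other knockouts. The other 3 were all in control 2. Tfrc was at 25.6 CPM there, against 14.3 to 15.9 CPM in the other controls. Slc40a1 was at 157.7 CPM, against 128.1 to 132.8 CPM. Tmprss6 was at 488.7 CPM, against 421.6 to 429.0 CPM. The cause was not tested.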

How the results depend on the processing

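The number of the 10 genes called was 0 and became 1, Smad7, with DESeq2; with 1 liver left out it was 0 to 1, the 1 being Smad7 without control 1. The count over all genes, 274, was 850 with DESeq2, 92 with limma-trend on log2(TPM + 1) without a filter, 176 with the replicate block, 431 without control 2 and knockout 4, and 108 to 372 with 1 liver left out (108 without knockout 2, and at most 159 without knockout 1 or 3 or control 1, 3 or 4). Livers of the same number are not known to share a litter or a day. Their deviations had correlations of 0.207, 0.00904, -0.0243 and -0.0672, and 2 of 8 livers correlated best with their own number. The block changed no call among the 10, added the Kupffer marker Clec4f (log2 fold change 0.51, adjusted p = 0.0411, against 0.313 without it), lost Orm1 (adjusted p = 0.125), and gave an exact p = 0.5 for the summed hepcidin genes. Their log2 difference, -0.42, ran from -0.80 to -0.22 with 1 liver left out. Its exact p was below 0.05 without control 2 alone, where the groups left do not overlap and the smallest possible p was bound to result. That p adds no support for a difference. Without control 2 and knockout 4 the difference was -0.87 (exact p = 0.1, the smallest possible). Of 190 fold changes of the 10 genes under alternatives, 183 kept their direction and their side of the threshold and 2 passed it (Smad7). The other 5 were reversed, for Hfe (0.025 on library size alone, 0.028 without control 3; -0.109 to 0.028 with 1 liver left out) and Tmprss6 (0.008 on log2(TPM + 1) with or without the filter, 0.009 on log2(TPM + 0.1)). Of named genes outside the 10, reversals were seen for Smad6 (0.016 without control 4; -0.265 to 0.016 with 1 liver left out), Id2 (0.122 without control 1; -0.671 to 0.122) and Id3 (0.058 without control 1, 0.12 without knockout 1; -0.29 to 0.12). The Hamp2 share was 4.27 percentage points higher in knockouts, 4.11 on TPM, and 3.23 to 5.43 with 1 liver left out. Orm1 also lost its call without a filter (adjusted p = 0.0682), with limma-voom (0.138) and in 6 of 8 fits with a liver left out. The cause was not tested for any of these. Depth limits Bmp6, at 64 to 123 counts a liver, and Hamp2 in control 2, at 27.04.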

Other observations

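The ferritin chains differed in how they spread over the livers. Fth1, the ferritin heavy chain, was at 1253 to 1340 CPM in the controls and 1197 to 1644 CPM in the knockouts. Ftl1, the light chain, was at 387.3, 537.7, 1647 and 2623 CPM in the controls, by number, and 540.5, 3254, 3030 and 1532 CPM in the knockouts, with no order by genotype (log2 fold change 0.69, interval -1.10 to 2.47, edgeR adjusted p = 0.669). Ftl1 has near-identical copies in the mouse genome that share its reads, so its level is uncertain. Hnf4a, a hepatocyte factor that acts on several iron genes, was at 738.3 to 897.9 CPM in the controls and 446.0, 617.5, 673.2 and 844.9 CPM in the knockouts, by number (edgeR adjusted p = 0.291). It was lowest in knockout 1, where Hamp and Slc40a1 were lowest too. In control 2 it was highest, as was Slc40a1, but Hamp was nearly as low there as in knockout 1 (177.7 and 174.6 CPM). Its part in these levels was not tested. The ferritin chains and Hnf4a were chosen after their values were seen.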
